A study of Mus musculus with 4 samples.

Results

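The interleukin 6 (IL-6) family and its feedback inhibitor *Socs3* were followed across the cell types of the mouse lung without and with mechanical ventilation at 2 ages. The members were 8 of the 32285 genes counted, taken by symbol: the ligands *Il6*, *Lif*, *Il11* and *Osm*, the receptor subunits *Il6ra*, *Il6st* and *Osmr*, and *Socs3*. Single cells of the left lobe were counted in 4 droplet libraries, and each library pooled 3 wild-type male C57BL/6 mice. Age was either 2 to 3 months (young) or 22 months (aged), and at each age a library was made from naive, nonventilated mice and another from mice ventilated for 3 hours. The mice aged to 22 months were kept on a food-restricted diet, and the study states no such diet for the young. Diet therefore cannot be told apart from age. Ventilation used a high, injurious tidal volume. The ventilated mice were also given an anesthetic, an analgesic, vascular lines, infused fluid and oxygen, so these cannot be told apart from ventilation. The cells of all 4 libraries were released by enzymes and frozen before capture. The family was chosen because earlier results of these data showed *Il6* in fibroblast-like and basophil-like cells and a change of *Il6* with ventilation and age, so the members were chosen by values of these comparisons and their levels are given as a description.

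Cytokines of this family signal through receptor complexes built around gp130, the product of *Il6st*. IL-6 first binds the receptor coded by *Il6ra*, which few cell types carry, and IL-6 bound to a shed, soluble form of that receptor can also act on cells that carry gp130 alone. Oncostatin M (*Osm*) binds gp130 together with the product of *Osmr*, while leukemia inhibitory factor (*Lif*) and IL-11 (*Il11*) use gp130 with a receptor of their own. The complexes activate JAK kinases and the transcription factor STAT3, and *Socs3*, a target of STAT3, codes for a protein that blocks gp130 and so ends the signal. In the lung, IL-6 is known as a marker of ventilator-induced injury, and fibroblasts, smooth muscle, macrophages and epithelium can make cytokines of the family.

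The promoters of *Il6*, *Lif* and *Il11*, the ligands whose levels differed most with ventilation, and of *Socs3*, a target of STAT3, are shown. Each sequence is the 250 bases before the start of the RefSeq gene in GRCm38.p6, the build of the counts, written 5′ to 3′ on the strand of the gene, and capitals mark matches to 3 motifs searched on both strands: TTCNNNGAA for STAT factors, TGANTCA for AP-1, and GGNNTTTCC for NF-kB.
*Il6*, chr5:30012864-30013113, plus strand: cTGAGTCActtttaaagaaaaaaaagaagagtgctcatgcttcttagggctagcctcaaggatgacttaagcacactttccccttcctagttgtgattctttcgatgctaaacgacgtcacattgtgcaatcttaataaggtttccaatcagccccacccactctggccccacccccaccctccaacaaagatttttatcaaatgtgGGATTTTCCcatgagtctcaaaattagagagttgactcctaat
*Lif*, chr11:4257318-4257567, plus strand: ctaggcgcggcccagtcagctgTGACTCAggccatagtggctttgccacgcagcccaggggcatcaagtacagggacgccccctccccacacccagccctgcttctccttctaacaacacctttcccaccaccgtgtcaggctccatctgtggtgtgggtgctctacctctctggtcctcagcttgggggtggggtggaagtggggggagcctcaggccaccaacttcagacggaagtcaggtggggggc
*Il11*, chr7:4782858-4783107, minus strand: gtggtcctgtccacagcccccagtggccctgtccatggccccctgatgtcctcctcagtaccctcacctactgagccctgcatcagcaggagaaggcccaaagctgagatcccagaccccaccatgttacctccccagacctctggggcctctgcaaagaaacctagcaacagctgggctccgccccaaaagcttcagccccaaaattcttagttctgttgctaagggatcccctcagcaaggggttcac
*Socs3*, chr11:117969367-117969616, minus strand: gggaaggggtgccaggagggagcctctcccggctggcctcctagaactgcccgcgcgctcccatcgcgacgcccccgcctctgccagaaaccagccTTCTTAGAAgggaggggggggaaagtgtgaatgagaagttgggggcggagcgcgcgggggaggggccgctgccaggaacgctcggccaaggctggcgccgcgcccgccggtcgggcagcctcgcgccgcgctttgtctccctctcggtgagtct
The *Il6* window held an AP-1 match 249 to 243 bases before the start and an NF-kB match 43 to 35 bases before it, and the *Lif* window held an AP-1 match 228 to 222 bases before the start. In the *Socs3* window, a STAT match lay 154 to 146 bases before the start of the RefSeq gene. The GENCODE gene of *Socs3* reaches 117970047, so this window and its match lie inside that gene. The *Osmr* window (6874314 to 6874563) likewise lies inside its GENCODE gene, which reaches 6874969. The *Il11* window held no match, nor did those of *Il6ra*, *Il6st* and *Osmr*, and *Osm* is only named. Over 32841 promoters of the same length, 7.02% held the STAT motif, 6.75% the AP-1 motif and 4.93% the NF-kB motif, so a match is a description of the letters and not of a bound site. *Lif* and *Osm* are neighbors on chromosome 11 (4257557 to 4272514 and 4236420 to 4241026, both on the plus strand), and *Socs3* lies on the same chromosome at 117966079 to 117970047.

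The libraries held 3630 to 4497 barcodes and 40655452 to 45218176 unique molecular identifiers (UMIs, the tags that count captured transcripts), of which 2171 to 2976 cells and 22814008 to 28010151 UMIs per library were retained. Clusters of the 10160 retained cells were named from markers, which gave 21 types called "like" their namesake and 1 unnamed cluster of 342 cells. UMIs were summed per type and library and expressed per 1000000 UMIs of that sum (CPM). With 1 library in each group there was no replicate, so no test was run, and the 95% intervals given in parentheses are exact ones that cover counting error alone, not the spread between mice or pools. The same libraries enter several comparisons, so these are not independent. Values given in fours follow a fixed order, first the young library without and the young library with ventilation, then the aged library without and the aged library with it. A type was counted as measured for a member with at least 20 UMIs over the 4 libraries, which held for 13 of 21 types for *Il6*, 7 for *Lif*, 2 for *Il11*, 7 for *Osm*, 17 for *Il6ra*, 20 for *Il6st*, 13 for *Osmr* and 20 for *Socs3*. The libraries did not fill the same clusters: general capillary-like cells lay mostly in 1 cluster without ventilation (567 and 489 cells) and in another with it (633 and 299 cells), and alveolar fibroblast-like and classical monocyte-like cells were split in the same way. Types therefore join these clusters, and the 1776 fibroblast-like cells were divided one by one by the larger of their adventitial and alveolar marker sums.

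Over all retained cells, 3 of the 8 members, *Il6*, *Lif* and *Il11*, were at least 2-fold higher in the ventilated than the nonventilated young library, and none was 2-fold lower, beside 5.93% of all genes with at least 20 UMIs higher and 17.6% lower. In the aged libraries, *Lif* and *Il11* were past 2-fold, beside 4.13% of genes higher and 11.2% lower, and *Il6* was not. Between the nonventilated libraries of the 2 ages no member differed by 2-fold (background 3.20% higher and 2.10% lower with age). Between the ventilated libraries, *Lif* and *Il11* were at least 2-fold lower in the aged (background 4.30% higher and 2.72% lower). In fibroblast-like cells, where 7 members were measured, *Il6*, *Lif*, *Il11*, *Il6st* and *Osmr* were past 2-fold with ventilation in the young (background 8.59% higher and 22.3% lower), and *Lif* and *Il11* in the aged (background 4.98% and 12.7%). With age, *Il6* was past 2-fold higher in nonventilated fibroblast-like cells (background 2.47% higher and 1.72% lower), and *Lif* and *Il11* were past 2-fold lower in ventilated ones (background 6.27% higher and 3.66% lower). Since the family was chosen on these comparisons, the counts are read as a description. The median gene itself was lower in the ventilated sums, by a log2 ratio of -0.23 in the young and -0.17 in the aged over all cells and -0.20 and -0.06 in fibroblast-like cells. Measured against that median gene, *Osm* (1.01) and *Osmr* (1.19) also passed 2-fold over all young cells.

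*Il6*, the founding cytokine of the family, was most abundant per UMI in basophil-like cells and had most of its UMIs in fibroblast-like cells. Over all retained cells it stood at 43.1 CPM (1041 UMIs, 40.5 to 45.8) in the young nonventilated library, 106 CPM (2982 UMIs, 103 to 110.4) in the young ventilated library, 82.4 CPM (1999 UMIs, 78.8 to 86.1) in the aged nonventilated library and 58.6 CPM (1336 UMIs, 55.5 to 61.8) in the aged ventilated library. The young ventilated value was the highest and the young nonventilated value the lowest, and the 4 intervals did not overlap. *Il6* was 2.47-fold higher (2.30 to 2.66) with ventilation in the young and 1.41-fold lower (1.31 to 1.51) in the aged. It was 1.91-fold higher (1.77 to 2.06) in the aged than the young nonventilated library, and 1.82-fold lower (1.70 to 1.94) in the aged ventilated library than in the young one. The difference between the ages in the ventilation ratio was not tested.

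Adventitial fibroblast-like cells, which line vessels and airways and were few (47, 69, 31 and 45 cells), carried the second highest *Il6* level. It was 239 CPM (117 UMIs, 198 to 287) in the young nonventilated library, 902 CPM (832 UMIs, 842 to 966) in the young ventilated library, 1009.9 CPM (351 UMIs, 907 to 1121) in the aged nonventilated library and 717 CPM (345 UMIs, 643 to 796) in the aged ventilated library. The young nonventilated cells stood apart at the low end, and the other 3 libraries lay within 717 to 1009.9 CPM, the aged ones high with or without ventilation. *Il6* was 3.77-fold higher (3.10 to 4.62) with ventilation in the young and 1.41-fold lower (1.21 to 1.64) in the aged, and without ventilation it was 4.22-fold higher (3.41 to 5.25) in the aged than the young. The share of these cells with an *Il6* UMI was 44.7, 73.9, 83.9 and 57.8%, and 17.9, 52.4, 58.6 and 47.2% once each cell was thinned to 2000 UMIs. In T-like cells, taken as a type that should lack *Il6*, the share was 4.88, 6.38, 0 and 0% (the values of 0 allow a share of up to 3.85 and 4.62% on a floor of 3 cells, or 4.62 and 5.52% by the exact interval) at median depths of 7163, 5212, 10074 and 8260 UMIs, beside 9884, 13906, 9807 and 9690 in the adventitial fibroblast-like cells.

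Alveolar fibroblast-like cells, the main fibroblasts of the alveolar wall, numbered 413, 517, 359 and 295 and held 51.6, 55.1, 51.9 and 53.1% of each library's *Il6* UMIs. Their *Il6* level was 107 CPM (537 UMIs, 97.7 to 116) in the young nonventilated library, 244 CPM (1644 UMIs, 232 to 256) in the young ventilated library, 237 CPM (1037 UMIs, 222 to 251) in the aged nonventilated library and 186 CPM (709 UMIs, 172 to 200.03) in the aged ventilated library. Again the young nonventilated library was the lowest, while the young ventilated and aged nonventilated intervals overlapped. *Il6* was 2.29-fold higher (2.07 to 2.53) with ventilation in the young and 1.27-fold lower (1.16 to 1.40) in the aged. With both subtypes pooled it was 118, 323, 293 and 245 CPM, which is 2.73-fold higher (2.50 to 2.98) in the young and 1.20-fold lower (1.10 to 1.30) in the aged.

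Within the fibroblast subtypes, the sign of the aged *Il6* ratio depended on how the subtypes were drawn. When whole clusters stood for the subtypes, in place of the marker sums of each cell, the aged log2 ratio turned from -0.49 to 0.13 in adventitial and from -0.35 to 0.46 in alveolar fibroblast-like cells, and the young *Il6* ratios were 2.11 and 1.95. The cluster named adventitial fibroblast-like held 137, 51, 114 and 35 cells, beside 47, 69, 31 and 45 adventitial cells by marker sums. Which cells counted as adventitial thus depended on the rule, and more so without ventilation. The subtype folds of *Lif* and *Il11* given below rest on the marker sums as well. The pooled fibroblast-like sum does not depend on that choice, but it does depend on the mix of subtypes in each library. Its aged *Il6* log2 ratio was -0.26, beside the positive 0.13 and 0.46 of the subtypes drawn by clusters. The libraries held 460, 586, 390 and 340 fibroblast-like cells, of which the adventitial cluster made up an unequal part. The part of this mix in the pooled ratios was not tested. The markers that drew the line moved with ventilation too: the 8 alveolar markers summed to 10934, 4118, 10207 and 5259.8 CPM in alveolar fibroblast-like cells, and the 8 adventitial markers to 7789, 3691, 6729.6 and 4487 CPM in adventitial ones, all 8 detected in every library in both cases. The 12 early response genes, which enzymatic release can induce, summed to 14707, 13976, 15546 and 13845 CPM in fibroblast-like cells. The part of the markers and of early response in the *Il6* levels was not tested.

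Basophil-like cells, rare granulocytes of type 2 immunity, had a level of *Il6* that no other type reached. There were 18, 20, 22 and 6 of them, with 277, 255, 369 and 134 UMIs, or 4717, 4458, 4819 and 4096 CPM. All 4 intervals overlapped, and *Il6* was seen in 94.4, 90, 95.5 and 100% of these cells. They held 26.6, 8.55, 18.5 and 10.03% of the *Il6* UMIs of their library, and when they were left out, the log2 ratio with ventilation over all cells went from 1.30 to 1.62 in the young and from -0.49 to -0.35 in the aged. The 8 basophil markers were near absent in fibroblast-like cells, at 11.9, 11.3, 7.40 and 5.12 CPM in all, against 12194, 15698, 15841 and 9078 CPM in basophil-like cells.

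**Figure D1:**
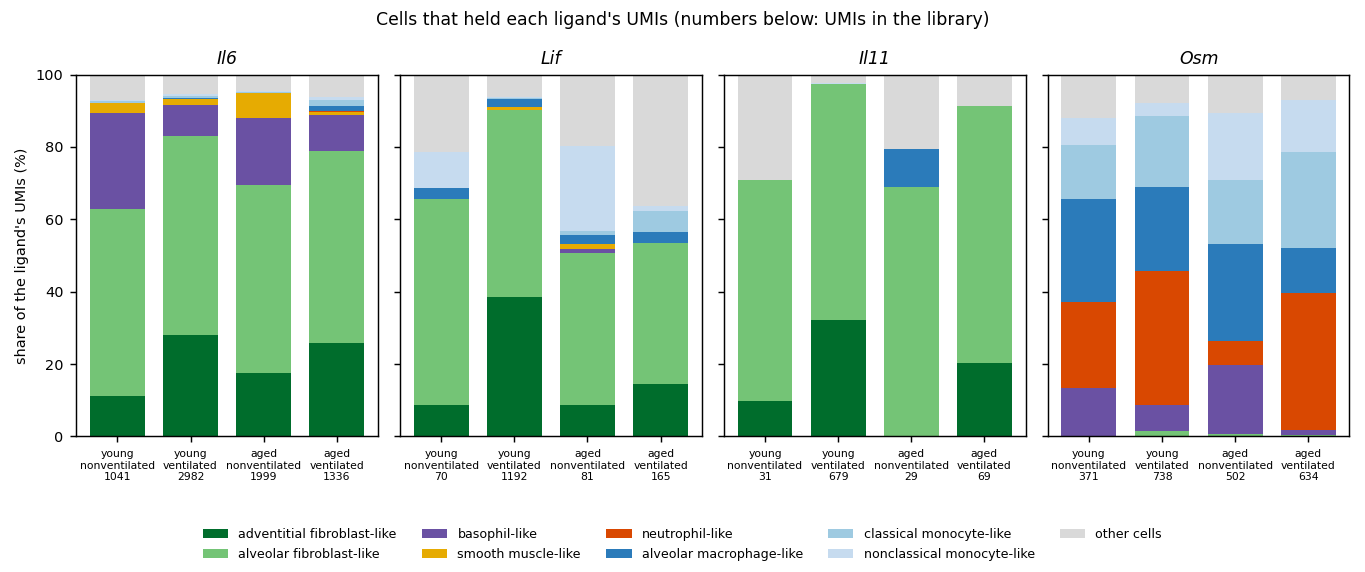
Share of each ligand's UMIs held by the cell types of each library, in percent of the UMIs counted below each bar. Alveolar and adventitial fibroblast-like cells (green) hold most of the *Il6* and *Il11* UMIs, basophil-like cells (purple) take 26.6% of the *Il6* UMIs in the young nonventilated library, and *Osm* lies in myeloid cells.

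The remaining types had less *Il6*. Contractile smooth muscle-like cells stood at 28.0, 88.6, 187 and 24.1 CPM (27, 52, 140 and 11 UMIs), but the largest number in a single cell was 8, 27, 44 and 9, and without that cell in each library the log2 ratio with ventilation was 1.10 in the young and -4.29 in the aged, against 1.63 and -2.84 with it. Across the 4 libraries, *Il6* ranged from 14.0 to 90.2 CPM in myofibroblast-like cells, 23.5 to 66.6 in alveolar type II-like cells and 9.55 to 28.1 in interstitial macrophage-like cells. Every other measured type stayed below 30 CPM in each library: 5.998 to 28.6 in venous endothelial-like, 1.16 to 19.9 in alveolar macrophage-like, 0 to 19.2 in aerocyte-like, 1.49 to 7.69 in classical monocyte-like, 0.452 to 11.0 in general capillary-like and 0.733 to 7.81 in nonclassical monocyte-like cells. From adventitial fibroblast-like cells down, the range of each type over the libraries overlapped that of the next, and the basophil-like range alone stood clear. Of the 18 *Il6* UMIs of aged nonventilated aerocyte-like cells, 17 came from a single cell. General capillary-like cells had 3, 31, 2 and 38 UMIs, and their *Il6* was 8.87-fold higher (2.77 to 45.4) with ventilation in the young and 24.4-fold higher (6.31 to 209) in the aged, on levels at or below the 11.0 CPM of the aged ventilated library. Over the 13 measured types, the ratio with ventilation was at least 2-fold higher in 8 and lower in 0 in the young, and higher in 4 and lower in 3 in the aged. The young 8 include aerocyte-like cells, with 2 UMIs against 0. At any fold, the counting interval lay above 1 in 7 types and below 1 in 0 in the young, and above in 3 and below in 5 in the aged.

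**Figure D2:**
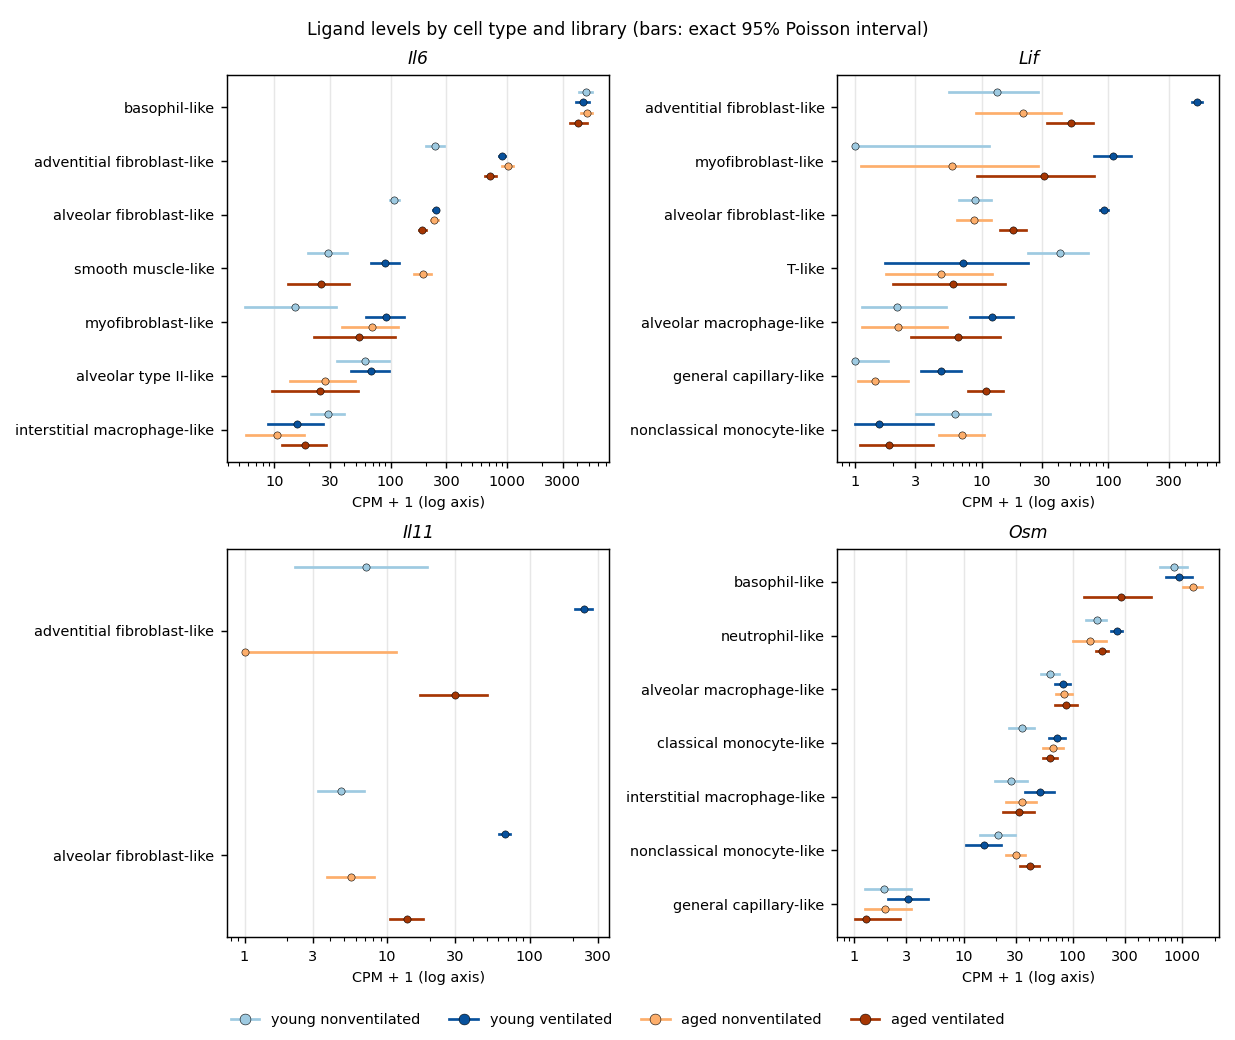
Levels of *Il6*, *Lif*, *Il11* and *Osm* by cell type and library, as CPM + 1 on a log axis, with exact 95% Poisson intervals as bars. Basophil-like cells lead *Il6* at 4096 to 4819 CPM, and the young ventilated library is the highest point for *Lif* and *Il11* in both fibroblast subtypes.

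*Lif* and *Il11*, both ligands of gp130 with a dedicated receptor, were scarce in 3 of the 4 libraries and abundant in the young ventilated one. *Lif* had 70, 1192, 81 and 165 UMIs over all retained cells, or 2.90, 42.6, 3.34 and 7.23 CPM. It was 14.7-fold higher (11.5 to 19.0) with ventilation in the young and 2.17-fold higher (1.65 to 2.86) in the aged. Without ventilation the aged over young fold was 1.15 (0.827 to 1.61), an interval that holds 1, whereas *Lif* was 5.88-fold lower (4.996 to 6.97) in the aged ventilated than the young ventilated library.

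Adventitial fibroblast-like cells had the highest *Lif* level, at 12.3 CPM (6 UMIs, 4.50 to 26.7) in the young nonventilated library, 498 CPM (459 UMIs, 453 to 546) in the young ventilated library, 20.1 CPM (7 UMIs, 8.10 to 41.5) in the aged nonventilated library and 49.9 CPM (24 UMIs, 31.9 to 74.2) in the aged ventilated library. Only the young ventilated interval stood apart, and the aged ventilated one overlapped the aged nonventilated one. *Lif* was 40.6-fold higher (18.5 to 111) with ventilation in the young and 2.48-fold higher (1.03 to 6.80) in the aged, and the share of cells with a *Lif* UMI was 12.8, 56.5, 12.9 and 15.6%. A few cells weighed heavily, since a single cell held 85 of the 459 young ventilated *Lif* UMIs, and the young log2 ratio was 5.03 without the richest cell of each library. With each cell given the same weight it was 3.13, against 5.12 from the summed UMIs. In the aged, the log2 ratio moved from 1.17 to 2.78 under a lower UMI limit per cell.

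In alveolar fibroblast-like cells, *Lif* was 7.94, 91.5, 7.76 and 16.8 CPM (40, 617, 34 and 64 UMIs), 11.5-fold higher (8.36 to 16.3) with ventilation in the young and 2.16-fold higher (1.41 to 3.38) in the aged. The nonventilated intervals of the 2 ages overlapped, and the aged ventilated level was 5.45-fold lower (4.21 to 7.17) than the young ventilated one. Over pooled fibroblast-like cells, which do not depend on the split, *Lif* was 8.32, 140.3, 8.67 and 20.5 CPM. That was 16.9-fold higher (12.6 to 23.2) with ventilation in the young and 2.36-fold higher (1.61 to 3.51) in the aged. B-like cells, taken as a type that should lack *Lif*, had a *Lif* UMI in 0 of 95, 37, 100 and 92 cells, which allows a share of up to 3.16, 8.11, 3 and 3.26% on that floor (3.81, 9.49, 3.62 and 3.93% by the exact interval), at median depths of 7467, 8933, 8564 and 11055 UMIs.

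Outside the fibroblast subtypes *Lif* rested on few UMIs, but its level was not low in every type. Myofibroblast-like cells reached 108 CPM in the young ventilated library, beside 91.5 CPM in alveolar fibroblast-like cells. T-like cells stood at 40.8 CPM in the young nonventilated library, above the 12.3 and 7.94 CPM of adventitial and alveolar fibroblast-like cells there. The other measured types stayed at or below 11.2 CPM. Myofibroblast-like cells had 0, 36, 1 and 4 UMIs, and against a floor of 3 counts for the 0 of the young nonventilated library, *Lif* was at least 12.9-fold higher with ventilation there, with an exact interval from 9.94. General capillary-like cells had 0, 20, 2 and 34 UMIs, more with ventilation at both ages (at least 5.73-fold in the young on the same floor, with an exact interval from 4.24), and alveolar macrophage-like cells had 2, 24, 2 and 5 UMIs. In nonclassical monocyte-like (7, 1, 19 and 2 UMIs) and T-like cells (14, 2, 3 and 3 UMIs), *Lif* was lower in the young ventilated library than in the young nonventilated one. Fibroblast-like cells held 90.3% of the *Lif* UMIs of the young ventilated library, and a smaller part elsewhere. They held 46 of 70 UMIs in the young nonventilated, 41 of 81 in the aged nonventilated and 88 of 165 in the aged ventilated library. In the last of these, general capillary-like cells held 34.

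*Il11*, a cytokine known for its part in fibrosis, was measured in the fibroblast subtypes alone, with at most 8 UMIs over the 4 libraries in any of the other 19 types. Over all cells it had 31, 679, 29 and 69 UMIs (1.28, 24.2, 1.19 and 3.02 CPM), which was 18.9-fold higher (13.2 to 28.0) with ventilation in the young and 2.53-fold higher (1.62 to 4.05) in the aged. *Il11* was 8.02-fold lower (6.25 to 10.4) in the aged than the young ventilated library, while without ventilation the aged over young fold was 0.932 (0.542 to 1.60). Alveolar fibroblast-like cells had 19, 442, 20 and 49 UMIs (3.77, 65.5, 4.56 and 12.8 CPM), and their *Il11* was 17.4-fold higher (11.0 to 29.1) in the young and 2.81-fold higher (1.64 to 4.999) in the aged. A single cell held 94 of the young ventilated and 15 of the aged ventilated *Il11* UMIs, and without the richest cell of each library the log2 ratio was 3.94 in the young and 1.08 in the aged, against 4.05 and 1.45 with it. Adventitial fibroblast-like cells had 3, 219, 0 and 14 UMIs (6.14, 238, 0 and 29.1 CPM). The 3 UMIs of their young nonventilated library came from a single cell, where the level was 38.7-fold higher (13.1 to 189) with ventilation, and *Il11* was seen in 0 of the 31 aged nonventilated cells, which allows a share of up to 9.68% on a floor of 3 cells and 11.2% by the exact interval. Against the floor of 3 counts, the aged ventilated *Il11* level was at least 3.37-fold higher, and the exact interval starts at 2.40. Of the 14 UMIs behind it, 8 came from a single cell, and without that cell the floor of 3 counts gave a ratio of 1.45, with an exact interval from 0.854. Over pooled fibroblast-like cells, *Il11* was 21.7-fold higher (14.2 to 34.8) with ventilation in the young and 3.47-fold higher (2.07 to 6.06) in the aged. Few of these cells carried it: the share with an *Il11* UMI was 3.48, 14.2, 4.36 and 7.94%, and 0.737, 6.30, 0.885 and 1.37% once thinned to 2000 UMIs.

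In pooled fibroblast-like cells, *Il6* was detected in a larger share of the cells with *Lif* than of those without it in each library. Of the 166 young ventilated fibroblast-like cells with a *Lif* UMI, 107 (64.5%) also had an *Il6* UMI, against 157 (37.4%) of the 420 without *Lif*. In the young nonventilated library these shares were 53.8% of 26 cells and 20.7% of 434, in the aged nonventilated library 58.6% of 29 and 37.7% of 361, and in the aged ventilated library 67.9% of 28 and 27.6% of 312. Cells with *Lif* were also deeper, with median UMIs of 16387.5, 16380.5, 16835 and 18078.5 against 13017.5, 12988, 13024 and 13191.5 in cells without it, and the part of depth in the shared detection was not tested. Adventitial fibroblast-like cells had more of both genes, and the part of the subtypes was not tested either. Within these cells the aged nonventilated library went the other way, with *Il6* in 75.0% of 4 cells with *Lif* and 85.2% of 27 without it. *Il6*, *Lif* and *Il11* were all found in 30 cells of the young ventilated library, in 6 of the aged ventilated, in 1 of the aged nonventilated and in 0 of the 460 young nonventilated fibroblast-like cells.

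*Osm* followed another map, with its UMIs in myeloid cells and nearly none in fibroblasts. Over all cells it stood at 15.3, 26.3, 20.7 and 27.8 CPM (371, 738, 502 and 634 UMIs), 1.72-fold higher (1.51 to 1.95) with ventilation in the young and 1.34-fold higher (1.19 to 1.51) in the aged. Basophil-like cells had the highest *Osm* level (852, 944, 1254 and 275 CPM from 50, 54, 96 and 9 UMIs), with the low aged ventilated value resting on 6 cells. In those 6 cells the 4 endothelial markers summed to 2109 CPM, against 105 to 221 in the other 3 libraries, and the 8 basophil markers were lowest there, as given above. The part of endothelial RNA in the *Osm* value was not tested. Neutrophil-like cells came next at 165, 252, 144 and 184 CPM, and each range stood clear of the following one down to alveolar macrophage-like cells at 61.0, 80.1, 82.0 and 86.3 CPM. With ventilation, *Osm* in neutrophil-like cells was 1.53-fold higher (1.20 to 1.97) in the young, and the aged fold was 1.28 (0.886 to 1.90), which holds 1. These cells were 4.78, 7.46, 2.34 and 11.7% of the retained cells (121, 222, 58 and 255), so that they held 23.7, 36.99, 6.57 and 38.0% of the *Osm* UMIs. Classical monocyte-like cells, in which *Osm* was 33.5, 70.8, 65.5 and 61.5 CPM, showed a level 2.11-fold higher (1.54 to 2.93) with ventilation in the young and a fold of 0.940 (0.722 to 1.23), which holds 1, in the aged. Interstitial macrophage-like cells (26.5, 48.8, 33.0 and 31.5 CPM) and nonclassical monocyte-like cells (19.8, 14.5, 29.3 and 39.4 CPM) were lower, and general capillary-like cells, taken as the background, stood at 0.889, 2.10, 0.904 and 0.290 CPM. *Osm* was seen in 36.4, 52.3, 25.9 and 40% of neutrophil-like cells and in 0.697, 1.71, 0.798 and 0.280% of general capillary-like cells, at median depths of 4555, 4850.5, 3999.5 and 5114 UMIs in the former and 7224, 6905, 7902 and 8526 in the latter.

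*Il6ra*, which codes for the receptor that confers binding of IL-6, was highest in monocyte-like cells and was lower there with ventilation at both ages. In classical monocyte-like cells it was 417 CPM (698 UMIs) in the young nonventilated library, 204 CPM (415 UMIs) in the young ventilated library, 454 CPM (610 UMIs) in the aged nonventilated library and 159.6 CPM (436 UMIs) in the aged ventilated library. Nonventilated and ventilated values did not overlap at either age, and *Il6ra* was 2.05-fold lower (1.81 to 2.32) in the young and 2.84-fold lower (2.51 to 3.22) in the aged. In nonclassical monocyte-like cells it was 435, 181, 403 and 188 CPM, 2.41-fold lower (2.10 to 2.77) in the young and 2.15-fold lower (1.93 to 2.40) in the aged. The classical monocyte-like cells came from different clusters with and without ventilation, one with 105 and 89 cells in the nonventilated libraries and another with 108 and 139 in the ventilated ones, whereas the nonclassical monocyte-like cells formed 1 cluster.

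Other myeloid cells showed a lower *Il6ra* with ventilation in the young. Neutrophil-like cells stood at 212, 82.1, 135 and 83.9 CPM, 2.58-fold lower (1.93 to 3.44) in the young and 1.61-fold lower (1.04 to 2.42) in the aged. Interstitial macrophage-like cells stood at 235, 122, 156 and 138 CPM, and alveolar macrophage-like cells at 152, 41.4, 94.7 and 89.6 CPM. In the alveolar macrophage-like cells *Il6ra* was 3.66-fold lower (2.87 to 4.71) in the young, and the aged fold was 0.946 (0.714 to 1.25), with an interval that holds 1. Of 17 measured types, *Il6ra* was at least 2-fold lower in 7 and higher in 3 in the young, and lower in 3 and higher in 4 in the aged.

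Structural cells had another pattern of *Il6ra*. Alveolar type I-like cells, the thin gas-exchange epithelium, were at 79.7, 107, 97.6 and 200.2 CPM, 2.05-fold higher (1.50 to 2.83) with ventilation in the aged, and so could not serve as a background for *Il6ra*. Of these 428 cells, 311 lay in a cluster with a median of 1232 UMIs. Its mean log2 fold was 4.94 for the alveolar type I markers and 4.44 for the airway epithelial ones, and the part of airway cells was not tested. Alveolar fibroblast-like cells were at 139, 115, 108 and 159.9 CPM, 1.20-fold lower (1.08 to 1.33) in the young and 1.48-fold higher (1.31 to 1.67) in the aged, and against the median gene the young log2 ratio was -0.07. *Il6ra* was 65.5 to 121 CPM in dendritic-like, 48.1 to 166 in mesothelial-like, 19.3 to 187 in myofibroblast-like, 39.5 to 69.1 in adventitial fibroblast-like, 14.5 to 57.0 in smooth muscle-like, 11.9 to 55.7 in B-like, 9.27 to 46.1 in T-like and 16.4 to 32.0 in lymphatic endothelial-like cells. Venous endothelial-like (5.67 to 15.6 CPM) and general capillary-like cells (1.999 to 5.15 CPM) were the lowest. B-like *Il6ra* was also lower with ventilation, 4.50-fold lower (1.64 to 17.3) in the young on 4 ventilated UMIs and 2.67-fold lower (1.62 to 4.51) in the aged. Over all cells *Il6ra* stood at 121, 76.0, 127 and 94.3 CPM.

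*Il6st*, the gene of gp130, was found in nearly every type and was highest in venous endothelial-like cells. These endothelial-like cells stood at 718 CPM (718 UMIs) in the young nonventilated library, 1181 CPM (909 UMIs) in the young ventilated library, 652 CPM (570 UMIs) in the aged nonventilated library and 1054 CPM (1115 UMIs) in the aged ventilated library. Both ventilated values lay above both nonventilated ones, and *Il6st* was 1.64-fold higher (1.49 to 1.82) in the young and 1.62-fold higher (1.46 to 1.79) in the aged. General capillary-like cells followed at 422, 557, 461 and 483 CPM, and their range overlapped that of mesothelial-like cells. With ventilation *Il6st* in them was 1.32-fold higher (1.24 to 1.40) in the young, and the aged fold was 1.05 (0.981 to 1.12), which holds 1. Aerocyte-like (162 to 315 CPM) and lymphatic endothelial-like cells (164 to 276 CPM) had less *Il6st*. The venous and general capillary-like cells had *Il6ra* levels under 16 CPM, while neutrophil-like cells, with *Il6ra*, had an *Il6st* level of 3.74, 15.7, 13.1 and 5.34 CPM.

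In alveolar fibroblast-like cells, *Il6st* was 179.6, 419, 175 and 326 CPM, 2.33-fold higher (2.16 to 2.52) with ventilation in the young and 1.86-fold higher (1.70 to 2.04) in the aged. Adventitial fibroblast-like cells were at 248, 363, 224 and 355 CPM. Nonclassical monocyte-like cells went the other way, at 93.1, 37.4, 67.5 and 36.4 CPM, 2.49-fold lower (1.84 to 3.40) in the young and 1.85-fold lower (1.43 to 2.42) in the aged. Levels of *Il6st* in the remaining types ran from 222 to 552 CPM in mesothelial-like down to 18.9 to 54.5 CPM in dendritic-like cells, and each range overlapped the next except between smooth muscle-like (149.6 to 283) and alveolar type I-like cells (96.2 to 145).

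*Osmr*, the receptor subunit for oncostatin M, was found across structural cells, with the highest mean in alveolar fibroblast-like cells. Alveolar fibroblast-like cells led with 296 CPM (1493 UMIs) in the young nonventilated library, 627 CPM (4231 UMIs) in the young ventilated library, 417 CPM (1827 UMIs) in the aged nonventilated library and 498 CPM (1899 UMIs) in the aged ventilated library. As with *Il6*, the young nonventilated library was the lowest and the young ventilated the highest, and *Osmr* was 2.12-fold higher (1.995 to 2.25) with ventilation in the young, 1.19-fold higher (1.12 to 1.27) in the aged and 1.41-fold higher (1.31 to 1.51) in the aged than the young nonventilated library. Adventitial fibroblast-like cells stood at 215, 371, 423 and 436 CPM, again with the young nonventilated library below the other 3. Venous endothelial-like cells were at 318, 517, 296 and 482 CPM and general capillary-like cells at 227, 339, 263 and 319 CPM. Myofibroblast-like (250 to 404 CPM), lymphatic endothelial-like (222 to 407 CPM) and smooth muscle-like cells (202 to 297 CPM) had *Osmr* in a like range. Mesothelial-like cells ran from 27.6 to 341 CPM and alveolar type I-like cells from 14.3 to 58.1 CPM. Aerocyte-like cells, the capillary cells of gas exchange, were low without ventilation and higher with it (51.5, 232, 52.3 and 199 CPM), 4.51-fold higher (3.52 to 5.84) in the young and 3.81-fold higher (2.77 to 5.32) in the aged. Pericyte-like cells stood at 35.9, 284, 96.4 and 110.3 CPM, 7.92-fold higher (4.93 to 13.4) in the young and with a fold of 1.14 (0.746 to 1.75) in the aged, but the young log2 ratio went from 2.92 to 1.05 when clusters were made at a resolution of 0.18. Alveolar type II-like cells showed less *Osmr* with ventilation (211, 101, 176 and 97.7 CPM). The subunit was at 1.47 to 8.93 CPM in nonclassical monocyte-like cells and reached 20 UMIs in no other blood type, and B-like cells had a UMI of *Osmr* in 1.05, 5.41, 2 and 3.26% of cells.

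**Figure D3:**
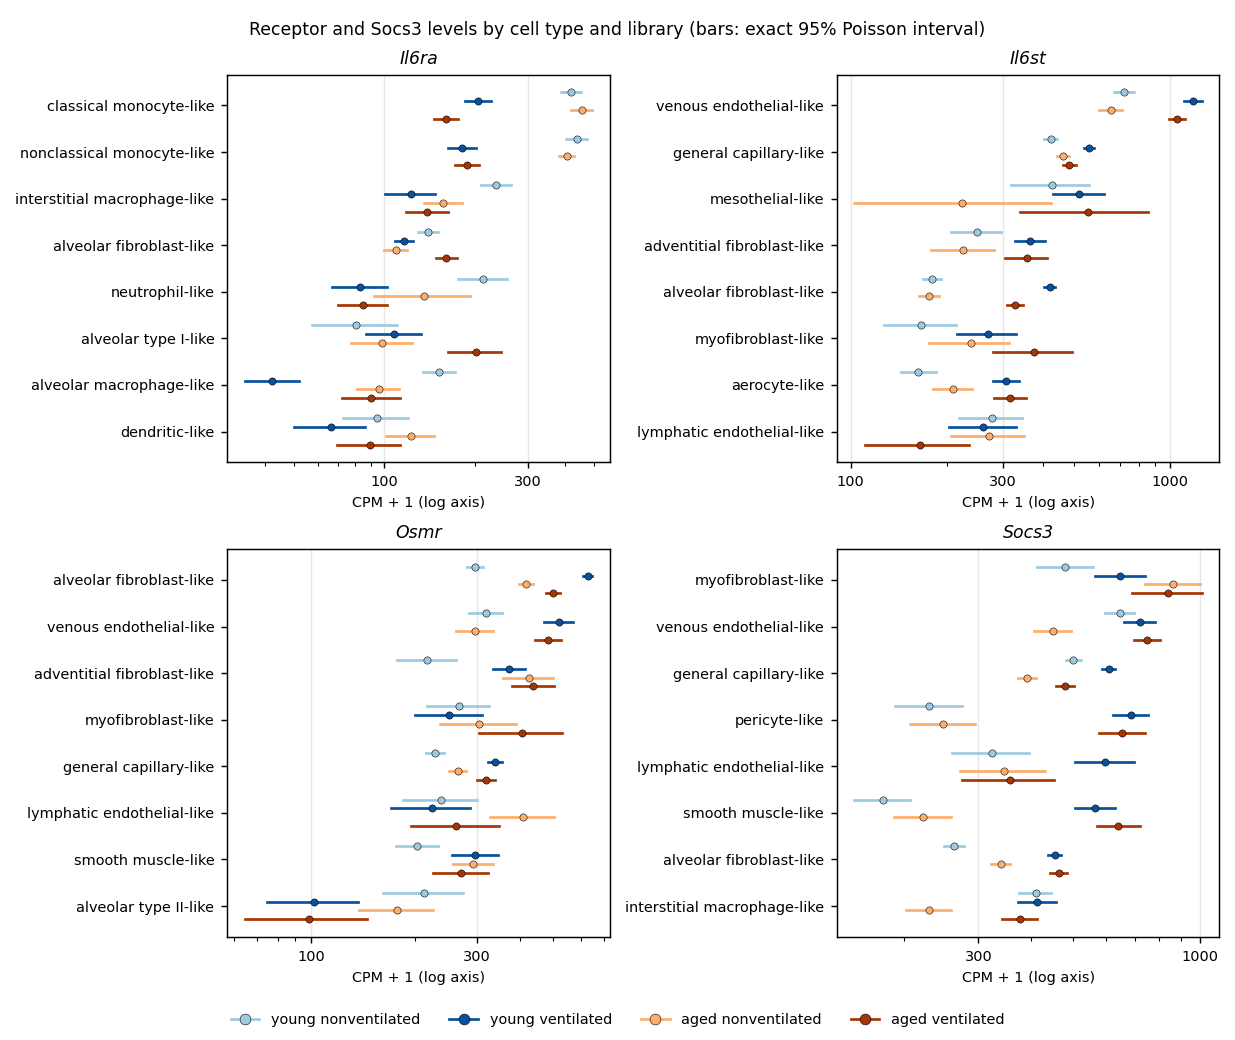
Levels of *Il6ra*, *Il6st*, *Osmr* and *Socs3* in the 8 types with the highest mean, as CPM + 1 on a log axis whose range differs between panels, with exact 95% Poisson intervals as bars. In monocyte-like cells both ventilated points of *Il6ra* (160 to 204 CPM) lie below both nonventilated points (403 to 454 CPM), and in pericyte-like and smooth muscle-like cells both ventilated points of *Socs3* lie above.

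*Socs3*, the inhibitor that gp130 signals induce, was higher with ventilation in 18 of 20 measured types in the young and in 17 in the aged, and at least 2-fold higher in 9 and 8 of them. Over all cells it was 269 CPM (6512 UMIs, 263 to 276) in the young nonventilated library, 405 CPM (11331 UMIs, 397 to 412) in the young ventilated library, 233 CPM (5656 UMIs, 227 to 239) in the aged nonventilated library and 374 CPM (8535 UMIs, 366 to 382) in the aged ventilated library. Both ventilated libraries lay above both nonventilated ones, and *Socs3* was 1.50-fold higher (1.46 to 1.55) with ventilation in the young and 1.61-fold higher (1.55 to 1.66) in the aged. In the aged it was 1.16-fold lower (1.12 to 1.20) than in the young without ventilation and 1.08-fold lower (1.05 to 1.11) with it.

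The largest young *Socs3* ratio was in alveolar macrophage-like cells, which started low. Alveolar macrophage-like cells had 10, 112, 7 and 32 UMIs (5.81, 52.2, 4.25 and 35.4 CPM), 8.98-fold higher (4.70 to 19.2) in the young and 8.33-fold higher (3.61 to 22.4) in the aged. Thinning each cell to 2000 UMIs left log2 ratios of 0.61 and 1.91 for *Socs3* there, against 3.04 and 2.91, on few UMIs. Nonclassical monocyte-like cells were at 85.0, 353, 100.3 and 363 CPM, 4.15-fold higher (3.40 to 5.10) in the young and 3.62-fold higher (3.17 to 4.13) in the aged, and classical monocyte-like cells at 69.4, 253, 61.0 and 296 CPM, 3.64-fold higher (2.97 to 4.50) and 4.86-fold higher (3.87 to 6.17).

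Mural cells held more *Socs3* than monocyte-like cells without ventilation, and the level was again higher with it. Pericyte-like cells stood at 228, 684, 247 and 654 CPM, 2.99-fold higher (2.44 to 3.69) in the young and 2.65-fold higher (2.14 to 3.30) in the aged. Smooth muscle-like cells stood at 178, 564, 222 and 640.2 CPM, 3.18-fold higher (2.63 to 3.84) and 2.89-fold higher (2.38 to 3.52). In these types the nonventilated and ventilated *Socs3* levels did not overlap, and the ages lay close together within each condition. Alveolar type I-like cells, most of them in the shallow cluster described above, were at 30.6, 171, 66.0 and 147 CPM. Their *Socs3* was 5.57-fold higher (3.27 to 10.2) in the young and 2.23-fold higher (1.53 to 3.28) in the aged.

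In several types the *Socs3* ratio had another size or sign at each age. In neutrophil-like cells, *Socs3* was 170.3, 261, 95.8 and 436 CPM, 1.53-fold higher (1.21 to 1.96) in the young and 4.54-fold higher (2.97 to 7.31) in the aged. In adventitial fibroblast-like cells it was 274, 326, 492 and 247 CPM, with a fold of 1.19 (0.968 to 1.47) in the young, which holds 1, while it was 1.99-fold lower (1.57 to 2.54) with ventilation in the aged. Alveolar fibroblast-like cells had 262, 453, 338 and 463 CPM, 1.73-fold higher (1.62 to 1.85) in the young and 1.37-fold higher (1.28 to 1.47) in the aged. These differences between the ages were not tested. Endothelial-like types were high throughout, with *Socs3* at 645, 719, 448 and 749 CPM in venous and 501, 607, 389.5 and 479 CPM in general capillary-like cells. Myofibroblast-like cells had the highest mean *Socs3* level, at 479 to 859 CPM, a range that overlapped those of the venous endothelial-like and general capillary-like cells. Alveolar type II-like cells went the other way at 185, 98.7, 168 and 54.7 CPM, 1.88-fold lower (1.22 to 2.89) in the young and 3.07-fold lower (1.70 to 5.92) in the aged.

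**Figure D4:**
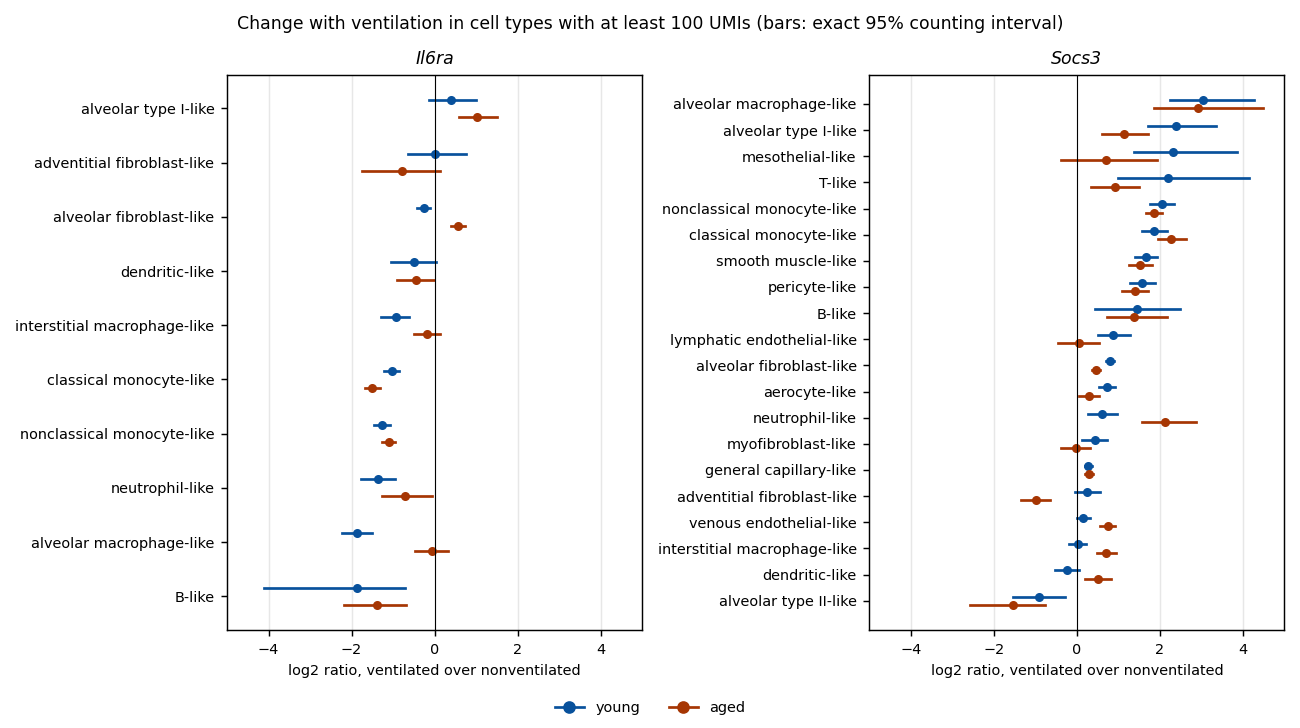
Log2 ratio of *Il6ra* and *Socs3*, ventilated over nonventilated, in the young (blue) and the aged (red) libraries for types with at least 100 UMIs, with exact 95% counting intervals as bars. *Socs3* lies right of 0 in most types at both ages, from 3.04 in young alveolar macrophage-like cells to -1.54 in aged alveolar type II-like cells, and *Il6ra* lies left of 0 in both monocyte-like types.

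The ratios of the members in fibroblast-like cells can be set side by side, though their differences between the ages were not tested. For *Lif* and *Il11* the log2 ratio with ventilation in adventitial fibroblast-like cells was 5.12 and 4.87 in the young, and in alveolar ones 3.49 and 4.05, with aged values of 1.09 and 1.45 in the latter, so the sign was shared and the young value was the larger there. For *Il6* the sign differed between the ages unless clusters stood for the subtypes, as given above. The receptor genes *Il6st* and *Osmr* had positive ratios at both ages in both subtypes, but the aged *Osmr* fold in adventitial fibroblast-like cells was 1.03 (0.831 to 1.28), an interval that holds 1. *Il6ra* was negative in the young (-0.27) and positive in the aged (0.56) in alveolar fibroblast-like cells. For *Socs3*, the young and aged log2 ratios were 0.25 and -0.99 in adventitial and 0.79 and 0.45 in alveolar fibroblast-like cells.

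**Figure D5:**
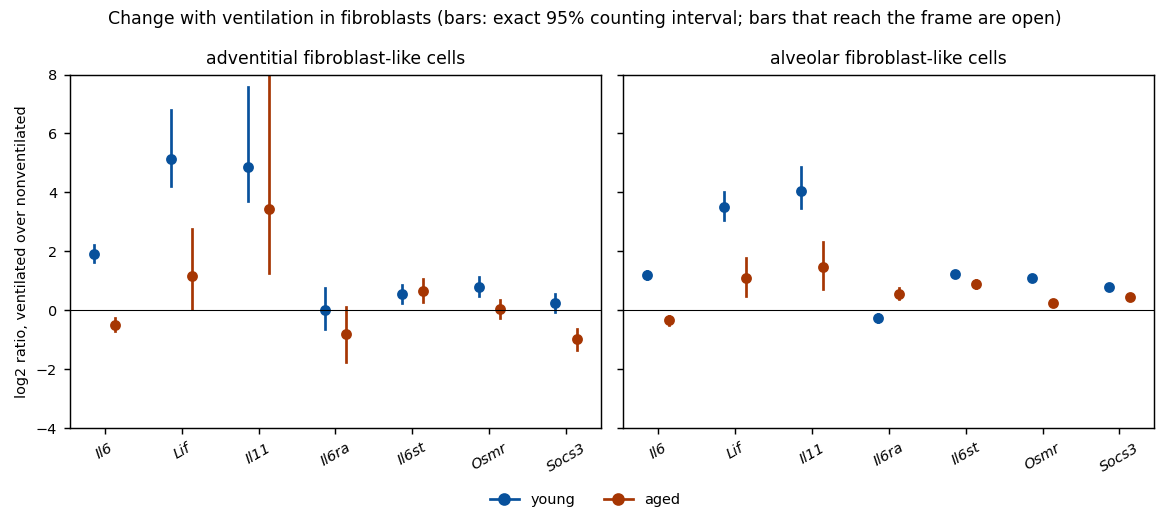
Log2 ratio, ventilated over nonventilated, of 7 members in adventitial and alveolar fibroblast-like cells, young in blue and aged in red, with exact 95% counting intervals as bars. *Lif* and *Il11* reach 5.12 and 4.87 in young adventitial fibroblast-like cells, and *Il6* lies above 0 in the young and below 0 in the aged, a sign that turned when clusters stood for the subtypes. Where a library held 0 UMIs, the bar is open and the point depends on the added UMI.

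Other genes of the pathway were read from lists that were chosen with earlier results of these data known. Of 23 targets of STAT3, 11 were at least 2-fold higher with ventilation over all young cells, beside 5.93% of all genes with at least 20 UMIs. Over all aged cells 9 were higher, beside 4.13%. None was 2-fold lower, beside 17.6% of genes in the young and 11.2% in the aged. Their median log2 ratio was 0.82 in the young and 0.65 in the aged, beside -0.25 and -0.19 over all genes. With ventilation the acute phase gene *Saa3* went from 2.15 to 1510.4 CPM in young cells, a log2 ratio of 9.43, and from 5.73 to 1586 CPM in aged cells, a log2 ratio of 8.10. The other values in parentheses are log2 ratios too. *Lcn2*, which codes for an iron-scavenging protein, went from 17.0 to 295 CPM in the young (4.11) and from 18.9 to 419 CPM in the aged (4.47). *Timp1*, an inhibitor of matrix proteases, went from 13.2 to 243 CPM in the young (4.20), and the haptoglobin gene *Hp* from 94.2 to 762 CPM in the aged (3.02). In fibroblast-like cells, 13 of the 23 were at least 2-fold higher in the young, beside 8.59% of all genes with at least 20 UMIs. In the aged fibroblast-like cells 8 were higher, beside 4.98%, and 1, *Irf1*, was lower (-1.72), beside 12.7%. The median log2 ratio of the targets in these cells was 1.40 and 0.72, beside -0.25 and -0.11 over those genes. Between the ages, *Saa3* was higher in the aged nonventilated cells (1.40) and *Timp1* lower in the aged ventilated ones (-2.03). Neutrophil-like cells, which also express *Lcn2*, made up more of the ventilated libraries, as given above, and their part in these sums was not tested.

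The signaling genes between receptor and target were read over all cells and in fibroblast-like cells. With ventilation, 5.93% of all genes were at least 2-fold higher and 17.6% lower over all young cells, and 4.13% and 11.2% over all aged cells. In fibroblast-like cells these shares were 8.59% and 22.3% in the young and 4.98% and 12.7% in the aged. With age over all cells they were 3.20% and 2.10% without ventilation and 4.30% and 2.72% with it. Of 12 genes for JAK kinases, STAT factors and adaptors and 2 for the shedding proteases, 0 were past 2-fold over all cells in any comparison. Of 12 other negative regulators, 0 were past 2-fold in the young and 1 in the aged, *Pias3* (-1.26). In fibroblast-like cells, the kinase gene *Jak2* was at least 2-fold higher with ventilation in the young (2.13), and *Tyk2* (-1.88) and *Stat5b* (-1.17) were lower. In the aged fibroblast-like cells 0 signaling genes were 2-fold higher and 2 of the 12 were 2-fold lower, *Stat5b* again among them (-1.19). Of the negative regulators there, *Cish* (2.34) and the phosphatase gene *Ptpn2* (1.57) were higher in the young, and in the aged *Cish* was higher (1.23) and *Pias3* lower (-1.05). Over all cells, among 5 other receptors of the family, *Lifr*, the receptor for LIF, went from 108 to 39.7 CPM in the young (-1.44) and *Il27ra* was also lower (-1.28), whereas in the aged *Cntfr* was higher (1.50). In the ventilated libraries *Il27ra* was higher in the aged than the young (1.26). Of 6 measured other ligands, 0 were past 2-fold in the young, and in the aged *Ebi3* was higher (1.05) and *Ctf1* lower (-1.41). *Cntf* was lower in the aged than the young nonventilated library (-1.14). Of the 12 early response genes, 0 were 2-fold higher with ventilation over all cells at either age. The heat shock genes *Hspa1b* (-1.70) and *Hspa1a* (-1.14) were lower in the young, 2 of 12, which is near the 17.6% of all genes.

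Across 78 sums of a type and library (20 types, 10015 genes, levels as log2 of CPM + 10), the genes most like *Il6* by Pearson r were *Dclk1* (0.860), *Rbp4* (0.850), *Mmp3* (0.840), *Srpx* (0.837) and *Alpl* (0.829). For *Socs3* they were *Fmnl2* (0.738), *Ifitm3* (0.731), *Sbno2* (0.725), *Cebpd* (0.713), itself among the STAT3 targets, and *Phldb1* (0.712). The points share libraries and types, so the values are a description.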

How the data were processed

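The authors aligned the reads to mm10 with Cell Ranger 7.0.0, per the labels and the methods of the study, and deposited the counts of UMIs for every gene and barcode as they came, without scaling them. The 10x 3′ counts do not scale with gene length, so no length correction was applied. Folds were taken within a gene.

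Retained were barcodes of 200 to 5000 genes with no more than 10% mitochondrial UMIs and no more than 28597.11 UMIs (the percentile 93 over all barcodes), 10160 of 15428. The 5268 barcodes left out held 42.1% of the UMIs. Between libraries, 23 barcodes of all and 8 of those retained were shared. Cells were clustered with Seurat 5.3.0 in R 4.3.3 (37 principal components, resolution 0.5) on 1984 of 2000 variable genes, without the family and pathway genes, and the rest was computed with scipy 1.17.1, numpy 2.4.6 and pandas 2.3.3 under Python 3.11.15 and drawn with matplotlib 3.10.9. A cluster was named from up to 8 markers per type, of which at least 3 had to be detected, and this rule and the split of fibroblast-like cells by marker sums were set after the clusters were seen. Of the fibroblast-like cells, 130 of 1776 had 40 to 60% of their marker UMIs in the adventitial list, 21 had equal sums and 3 had no marker UMI. No doublet caller was run, and 482 cells with genes of 2 lineages were left out as an alternative.

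Log2 ratios were taken between CPM with 1 UMI added to each sum, and folds without it. Intervals are exact 95% ones (Poisson for a level, conditional binomial for a fold, Clopper-Pearson for a share), and UMIs of 1 cell are not independent, so they cover counting error only. A count of 0 was set to a floor of 3 for bounds on a fold or a share, which is narrower than the exact limit given beside it. The ratio code was tested on simulated data. Other alternatives varied the filters, scaling, weighting, depth per cell and clusters. The named genes are the members in types with at least 20 UMIs, up to 3 genes per list and direction past 2-fold over all cells, and the 5 genes most like *Il6* and *Socs3*. The target, signaling and regulator genes in fibroblast-like cells were named after their values were seen, and not every such gene is reported here. Gene positions came from the GENCODE annotation of GRCm38, and promoters from RefSeq. The members and lists were chosen with earlier results of these data known.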

Additional observations from a re-analysis of the deposited data

Results flagged for a closer look

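For *Il6* the ratio with ventilation had opposite signs at the 2 ages, with counting intervals that left out 1, and the difference between the ages was not tested. The log2 ratio was 1.30 in the young and -0.49 in the aged over all cells, 1.45 and -0.26 in fibroblast-like cells, 1.90 and -0.49 in adventitial fibroblast-like cells and 1.19 and -0.35 in alveolar fibroblast-like cells. In smooth muscle-like cells, the *Il6* values were 1.63 and -2.84, and in venous endothelial-like cells 1.89 and -1.97, both on few cells, since the 6 young nonventilated venous UMIs came from a single cell. The aged venous *Il6* value was 0.68 with a mitochondrial limit of 5%, and with clusters as the fibroblast subtypes the aged *Il6* values were 0.13 in adventitial and 0.46 in alveolar fibroblast-like cells, so in these the signs at the 2 ages were then the same. The opposite case was *Il6ra*, at -0.27 in young and 0.56 in aged alveolar fibroblast-like cells and -0.28 and 0.48 in all fibroblast-like cells.

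The barcodes left out by the cell filter, which enter no comparison, held 42.1% of all UMIs and also held *Il6*, *Lif* and *Il11*, with a level past 2-fold higher with ventilation in the young. The log2 ratio there was 1.13 for *Il6* in the young, 4.29 for *Lif* in the young and 1.01 in the aged, and 3.14 for *Il11* in the young and 1.54 in the aged. For *Il6* in the aged barcodes left out it was -0.58. *Osm* was at 0.64 in the young and -0.66 in the aged barcodes left out. The fold of *Socs3* there was 1.04 (0.994 to 1.08) in the young and 1.09 (1.05 to 1.13) in the aged, beside 1.50 and 1.61 in the retained cells.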

How the results depend on the processing

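Of 5401 alternative values of 456 results, 4970 stayed within the counting interval of the reported value, 417 moved beyond it and 14 changed the sign of a ratio past 2-fold. No paired analysis was possible because each group had 1 library. Over all cells, the log2 ratio of *Il6* in the young was 1.53 with median-of-ratios scaling, 0.85 as a mean over cells, 0.89 with cells thinned to 2000 UMIs, 1.10 with the same weight per type in every library and 1.62 without basophil-like cells, the last 2 of these alternatives having been added after the data were seen. In the aged, *Il6* was -0.63 with the UMI limit taken from the barcodes left by the other filters, -0.61 with a mitochondrial limit of 5%, and -0.32, -0.78, -0.94, -0.38 and -0.35 under the same order of alternatives as in the young. *Socs3* over all cells was 0.64 with that UMI limit, 0.82 with median-of-ratios scaling and 0.64 with the same weight per type in the young, and 0.86 with median-of-ratios scaling and 0.75 thinned in the aged. In fibroblast-like cells, *Il6* was 1.65 with median-of-ratios scaling and 1.20 thinned in the young and -0.42 thinned in the aged, and young *Lif* was 4.63 with the lower UMI limit. Without a filter on UMIs, 2 list genes in place of 1 were at least 2-fold higher in the aged than the young nonventilated cells. None of these turned a sign. Clusters in place of marker sums for the fibroblast subtypes, also added after the data were seen, moved 17 of 56 values.

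The cause of these 14 changes of sign was not tested. With cells thinned to 2000 UMIs, the log2 ratio became -0.60 for *Il6ra* in T-like cells (aged over young, ventilated), -0.086 for *Il6* in aged and -0.13 for *Lif* in young alveolar macrophage-like cells, -0.61 for *Osmr* in young alveolar type I-like cells and -1.11 for *Il6ra* in young general capillary-like cells. With a mitochondrial limit of 5% it became -0.87 for *Osmr* in young alveolar type I-like cells, 0.68 for *Il6* in aged venous endothelial-like cells and, for *Il6* between the ages, -2.50 in nonventilated venous endothelial-like and -0.32 in ventilated alveolar macrophage-like cells. *Il6st* in ventilated neutrophil-like cells, aged over young, became 0.23 with that limit and 0.30 without cells of 2 lineages. At a resolution of 0.18, aged over young with ventilation, *Lif* in general capillary-like cells became -3.95 and *Il6* in venous endothelial-like cells 0.41, and at a resolution of 1 *Socs3* in nonventilated alveolar type I-like cells became -0.58. With 1 library per group, the spread between mice and pools is unknown, and the small types, among them 6 aged ventilated basophil-like cells, limit every ratio drawn from them.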
